A study of Rattus norvegicus with 93 samples.

Results

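The expression of 10 genes that mark neutrophils was followed through the healing of holes in the rat skull roof, here called the neutrophil markers: S100a8, S100a9, Padi4, Mcemp1, Nlrp12, Stfa2l3, Csf3r, Aqp9, Clec4d and Clec4e. They were taken from a list of symbols and looked up in the platform annotation, and all 10 were measured among 15974 genes. The list was chosen with earlier results of these data known. Counts of markers set beside shares of all genes therefore describe the markers and are no independent test. Mcemp1 carries an older locus name there and was found through its accession. Round defects of 8 mm, named a critical-size defect by the series, or of 4 mm, below that size, were drilled in male rats aged 12 weeks, the disc was removed and the dura mater stayed in place. Nothing else was done to any defect, and the healing plug of each single defect was taken out with a trephine of its own diameter after 1, 3, 5, 7, 10, 14 or 21 days and its RNA hybridised to 1 of 93 one-colour arrays. The 8 mm groups held 5, 11, 12, 5, 6, 6 and 6 arrays on these days and the 4 mm groups 3, 8, 11, 5, 4, 5 and 6. No intact skull enters these comparisons, and day 1 is the earliest state. Rat numbers recur across days and sizes, and the labels do not say whether 1 rat bore several defects.

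Neutrophils are short-lived white cells that leave the blood for a wound within hours, kill microbes with stored enzymes and reactive oxygen, and are later cleared by macrophages. The 10 genes cover several of their tools. S100a8 and S100a9 encode the subunits of calprotectin, a calcium-binding and metal-binding protein that fills the neutrophil cytosol. Padi4 converts arginine to citrulline in histones and is needed in mice for the release of chromatin as extracellular traps. Nlrp12 is a cytosolic NOD-like receptor that restrains inflammatory signalling in mice, and Stfa2l3 belongs to the stefins, inhibitors of cysteine cathepsins. Csf3r is the receptor for granulocyte colony-stimulating factor, the main growth factor of the lineage. Clec4d and Clec4e are C-type lectin receptors that bind a glycolipid of mycobacteria and signal through the Fc receptor gamma chain. Aqp9 is a channel for water and glycerol, and Mcemp1 is a membrane protein first described in mast cells. Monocytes also carry several of them.

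Each value is the log2 of the deposited ratio of a probe to its own median over the arrays, so 0 is the usual level of that probe and levels of different genes cannot be set against each other. The lowest ratio listed is 0.01, or -6.64 on the log2 scale, and values at this floor have no order. S100a9, Padi4, Aqp9 and Clec4e never stood there, Nlrp12 and Stfa2l3 did on 1 array each, Csf3r on 2, Clec4d on 3, Mcemp1 on 7 and the S100a8 probe on 15. The median share of all probes at the floor lay between 10.1% and 21.2% in the 14 groups and was highest at day 21 in 8 mm defects. On single arrays it ran from 10.0% to 10.9% at days 1, 3 and 5. It ran from 10.1% to 17.15% at day 7 and from 10.4% to 23.8% at days 10 to 21. This rise runs along with the day, and its part in the differences of later from earlier days was not tested. On 7 arrays the level of the probes above the floor was low (a median under -0.7), 2 of them from day 1. Genes of bone, the labelled tissue, were on the arrays: all 11 listed were measured, and 5 were higher at day 21 than at day 1 (13.4% of all genes). Differences below are log2 differences ± SE from a limma model of all 14 groups, with both sizes weighted equally, and they passed where p adjusted over the 15974 genes by Benjamini-Hochberg was under 0.05. The arrays of a group come from separate defects. SEs and p-values rest on 1 spread within groups for each gene, pooled over all 14 groups, and not on the compared groups alone. The spread of single groups differed, with a median SD over the markers from 0.73 in 8 mm defects at day 1 to 2.33 in 4 mm defects at day 21.

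The neutrophil markers were highest 1 day after surgery, lowest around day 5, and several of them rose again by day 21. In 4 mm defects all 10 had their highest group mean at day 1, and in 8 mm defects 9 did. The exception was Csf3r, at 1.80 ± 0.95 (SD, n = 6) on day 21 and 1.73 ± 0.35 (n = 5) on day 1, a difference within the spread of the day 21 arrays. Day 5 gave the lowest group mean of 6 of the 10 in 8 mm defects and of 7 of the 10 in 4 mm defects. The F test over the 7 days passed for 10 of 10 in 8 mm defects, where 40.2% of all genes did, and for 8 of 10 in 4 mm defects, where 33.5% did. S100a8 and Csf3r did not pass there (adjusted p = 0.0832 and 0.467 from limma). In bulk tissue, fewer neutrophils and less of each RNA per cell cannot be told apart, which holds for every change below.

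**Figure D1:**
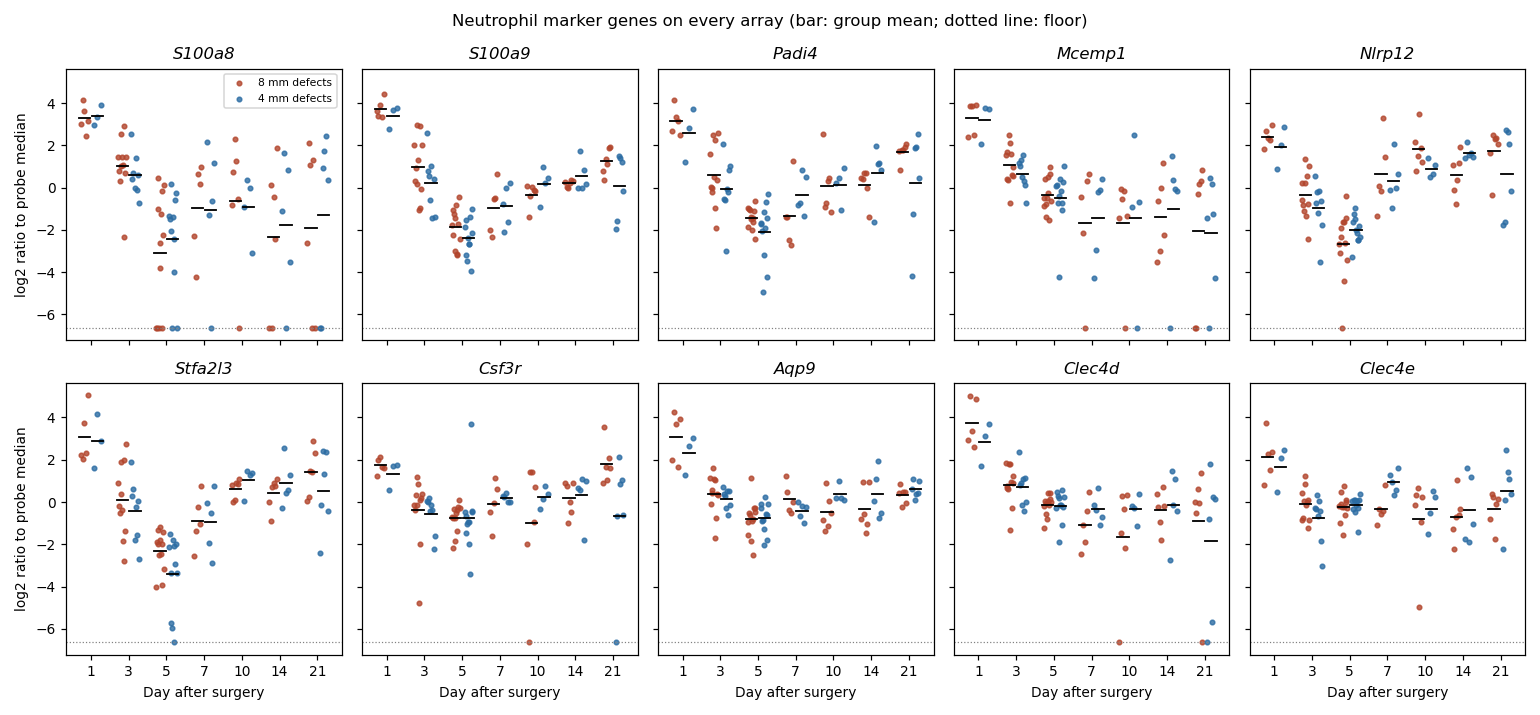
Log2 ratio to the probe median (y) of the 10 neutrophil markers on each of the 93 arrays by day after surgery (x), with 8 mm defects left of 4 mm defects within a day, a bar for each group mean and a dotted line at the floor of -6.64. Group means are highest on day 1, apart from Csf3r in 8 mm defects, S100a9 dips below 0 on all 23 arrays of day 5, and S100a8 has 15 arrays on the floor.

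At day 5 the lowest, median and highest values of S100a9, a subunit of calprotectin, were -3.18, -1.74 and -0.45 on the 12 arrays of 8 mm defects and -3.93, -2.39 and -1.0 on the 11 of 4 mm defects. At day 1 it read 3.65, 3.39, 3.89, 3.33 and 4.45 on the 5 arrays of 8 mm defects and 2.78, 3.69 and 3.76 on the 3 of 4 mm defects. Every day 5 array thus lay below every day 1 array, with a gap of over 3 log2 units between the nearest of them. The difference of day 5 from day 1 was -5.70 ± 0.43, a 52.1-fold lower ratio (lower on 23 of 23 arrays, adjusted p = 3.82e-19 from limma). Days 3 and 7 lay between these ends. Mean S100a9 at day 3 was 0.96 with an SD of 1.41 in 8 mm defects and 0.24 with an SD of 1.35 in 4 mm defects. Mean S100a9 at day 7 was -0.94 with an SD of 1.22 in 8 mm defects and -0.85 with an SD of 1.0 in 4 mm defects. From there the means went up at each later time in 8 mm defects, to -0.32 at day 10, 0.20 at day 14 and 1.24 at day 21. In 4 mm defects they were 0.18, 0.53 and 0.07 on the same days.

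S100a8, the other subunit, is read by 3 probes, and the rule for probes of 1 gene (the largest interquartile range) took one that targets an expressed sequence tag. At day 5 that probe had medians of -2.43 and -1.50 in 8 mm and 4 mm defects, with 4 of 12 and 2 of 11 arrays at the floor. At day 1 it gave 3.01, 4.16, 3.65, 2.43 and 3.16 in 8 mm defects and 2.97, 3.35 and 3.92 in 4 mm defects. The difference of -6.11 ± 1.13 thus depends on where the floor lies (adjusted p = 1.49e-05). It also stood at the floor on 4 of 12 arrays of day 21. A second probe, which targets the RefSeq transcript of S100a8, was at the floor on only 1 of 93 arrays and lay within 1 log2 unit of S100a9 on 89 of them, with a median distance of 0.22. The chosen probe did so on 48 arrays (median distance 1.0) and the third on 56 (0.65). Calprotectin is a complex of both proteins, and how closely their RNAs ran together here differed with the probe read.

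With the RefSeq probe, a setting added after the data were seen, S100a8 changed by -2.89 at day 3, -5.62 at day 5 and -2.74 at day 21 against day 1 (adjusted p = 1.85e-05, 6.89e-16 and 5.88e-05). With the chosen probe these were -2.53 ± 1.16, which did not pass (adjusted p = 0.24), -6.11 and -4.95 ± 1.25. The probes also parted over the return: day 21 lay above day 5 by 2.88 with the RefSeq probe (adjusted p = 3.5e-08) and by 1.15 ± 0.95 with the chosen one (adjusted p = 0.344). Counts of markers given here use the chosen probe. Group means of the RefSeq probe were 3.73, 0.89, -2.09, -0.73, -0.08, 0.23 and 1.2 from day 1 to day 21 in 8 mm defects, and 3.10, 0.16, -2.32, -0.83, 0.29, 0.42 and 0.15 in 4 mm defects. The mean of the 3 probes also placed day 21 above day 5, by 2.43 (adjusted p = 1.66e-05).

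**Figure D2:**
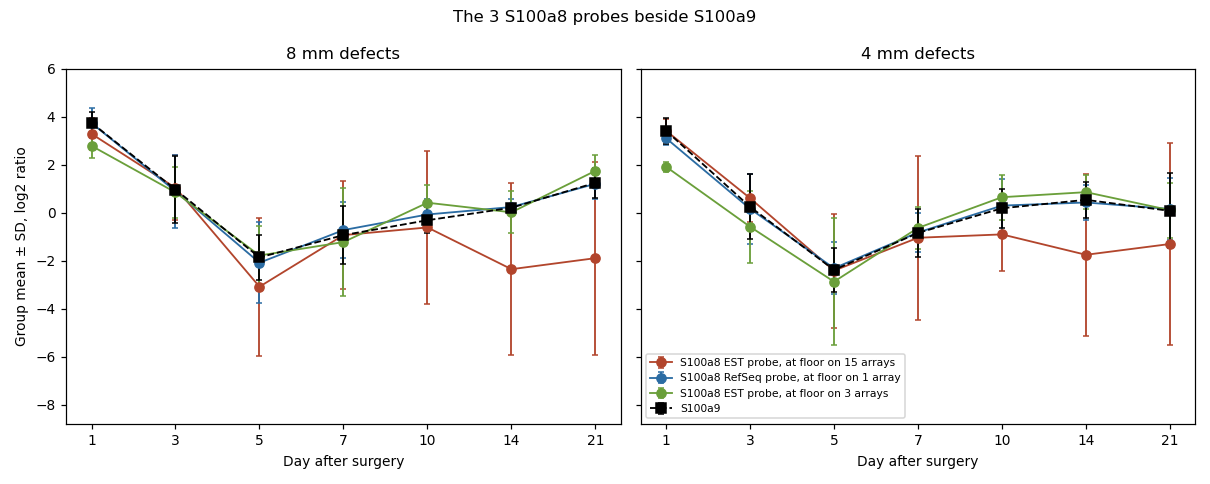
Group means ± SD of the log2 ratio (y) by day after surgery (x) for the 3 probes of S100a8 and for S100a9, in 8 mm defects (left) and 4 mm defects (right). The RefSeq probe runs close to S100a9 on all days, while the chosen probe, at the floor on 15 arrays, falls away from it at days 14 and 21 with SDs over 3.

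By day 3 the loss had begun: 8 of the 10 neutrophil markers were lower than at day 1, where 0.47% of all genes were lower, and 0 were higher, where 5.97% of all genes were. Their differences ran from -3.17 (Stfa2l3) to -2.02 (Csf3r), with a median of -2.53 beside 0.20 over all genes. S100a9 changed by -2.98 ± 0.44 (19 of 19 arrays, adjusted p = 3.99e-07), Aqp9 by -2.44 ± 0.35 (adjusted p = 1.8e-07) and Nlrp12 by -2.82 ± 0.52 (adjusted p = 4.76e-05). S100a8 and Mcemp1 did not pass, at -2.53 and -2.38 ± 0.88 (adjusted p = 0.24 and 0.0989). The arrays of day 3 scattered: Stfa2l3 spread from -2.80 to 2.76 around a median of -0.20 in 8 mm defects. For 0 of the 10 did the groups of day 3 and day 1 stand apart (0.00626% of genes lay wholly below). Csf3r passed narrowly (adjusted p = 0.0463) and no longer did when any 1 of the 8 day 1 arrays was left out, which left 7 markers (adjusted p from 0.057 to 0.134).

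At day 5 all 10 neutrophil markers were lower than at day 1, where 1.69% of all genes were lower and 17.3% higher. The median over the 10 was -4.08, beside 0.34 over all genes. For 8 of them no day 5 array reached the lowest day 1 array, which was so for 0.131% of all genes. The remaining pair, Csf3r and Clec4e, overlapped. Taken in 8 mm defects alone the groups were apart for 10 of 10 (0.632% of genes), and in 4 mm defects for 9 of 10 (0.958%), the exception being Csf3r.

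Among the enzymes and inhibitors, Padi4 at day 5 had a lowest, median and highest value of -2.44, -1.44 and -0.64 in 8 mm defects and of -4.96, -1.71 and -0.28 in 4 mm defects. At day 1 it stood at 2.66, 4.16, 3.36, 3.16 and 2.51 in 8 mm defects and at 1.2, 2.83 and 3.72 in 4 mm defects. The lowest day 1 array, replicate 13 of 4 mm defects, is 1 of the 7 arrays of low level. The Padi4 difference was -4.64 ± 0.55 (23 of 23 arrays, adjusted p = 9.15e-11). Stfa2l3, the stefin, was at -4.03, -1.99 and -1.20 (lowest, median, highest) in 8 mm defects and at -6.64, -2.95 and -1.50 in 4 mm defects on day 5. Its day 1 values were 2.24, 2.03, 3.76, 2.34 and 5.05 in 8 mm defects and 1.61, 4.18 and 2.90 in 4 mm defects. The difference was -5.84 ± 0.57 (adjusted p = 7.76e-14), with 1 day 5 array at the floor. Both genes had thus gone below their own median over all arrays on all 23 arrays of day 5.

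Nlrp12, the NOD-like receptor, had medians of -2.47 and -2.02 in 8 mm and 4 mm defects at day 5, and values of 1.81, 2.69, 2.37, 2.24 and 2.97 in 8 mm and 0.88, 2.0 and 2.88 in 4 mm defects at day 1 (difference -4.51 ± 0.51, adjusted p = 1.67e-11). Csf3r, the growth factor receptor, moved less, by -2.29 ± 0.64 (22 of 23 arrays, adjusted p = 0.00529). Its medians at day 5 were -0.62 in 8 mm and -0.93 in 4 mm defects, but 1 array of 4 mm defects read 3.69, above all day 1 arrays. Those of day 1 ran from 0.56 to 2.12. The lectin receptors Clec4d and Clec4e changed by -3.47 ± 0.65 and -2.10 ± 0.45 (adjusted p = 2.02e-05 and 0.000186), the channel Aqp9 by -3.49 ± 0.34 (adjusted p = 7.99e-14) and Mcemp1 by -3.65 ± 0.85 (adjusted p = 0.000724). Taken against their own medians over all arrays, Csf3r, Aqp9, Clec4d, Clec4e and Mcemp1 had day 5 group means from -0.81 to -0.16. Those of S100a8, S100a9, Padi4, Nlrp12 and Stfa2l3 lay between -3.40 and -1.42. Such a median is set by the days sampled and is no level of intact bone.

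**Figure D3:**
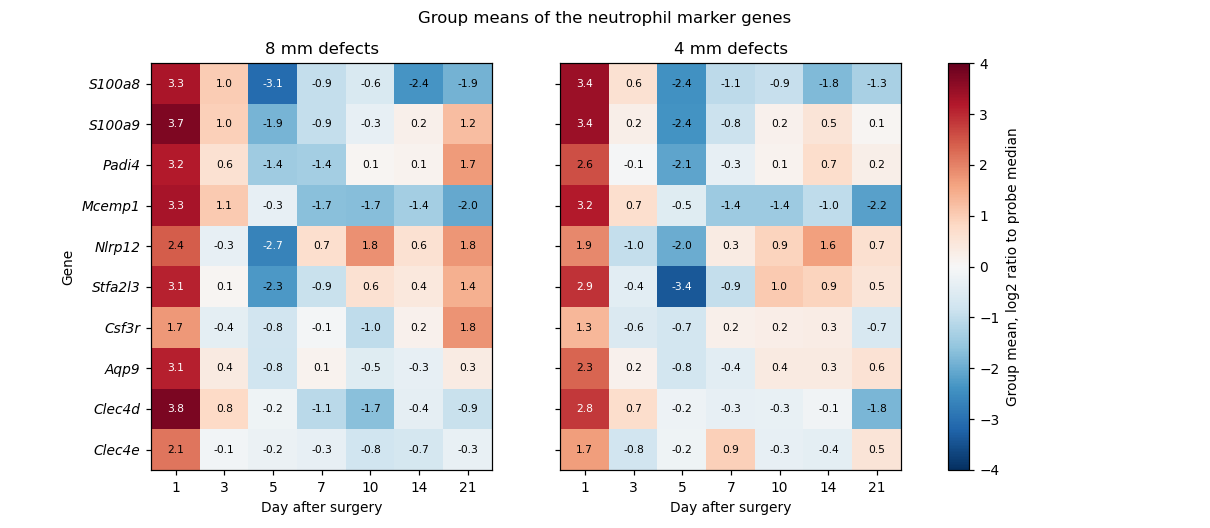
Group means of the log2 ratio to the probe median, as colour and printed value, for the 10 neutrophil markers (rows) by day after surgery (columns) in 8 mm defects (left) and 4 mm defects (right). Day 1 is the column of highest values, apart from Csf3r in 8 mm defects, and S100a9, Padi4, Nlrp12 and Stfa2l3 are below 0 at day 5 and above 0 at day 21 in both sizes.

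S100a9 and S100a8 lie side by side on rat chromosome 2 and Clec4d and Clec4e on chromosome 4, in each case with 0 protein-coding genes between their starts. RefSeq's promoter table of the GRCr8 assembly, which runs from 250 bases before to 50 bases after the start of a gene, held 8 of the 10 neutrophil markers. It was searched on both strands for the core site of PU.1, the factor of the myeloid lineage (GAGGAA, or TTCCTC on the other strand), and for a site of C/EBP factors, which drive granulocyte genes (TTGCNNAA, or TTNNGCAA). Printed 5′ to 3′ on the strand of the gene are 1 gene of calprotectin, the stefin and both lectin receptors, chosen as promoters that hold 1 or more matches, with both motifs in capitals. Those of Mcemp1 and Nlrp12 hold no match to either. They come from chr2:178490573-178490872 on the minus strand, chr11:78093485-78093784 on the plus strand, chr4:158275093-158275392 on the plus strand and chr4:158298418-158298717 on the minus strand.
S100a9: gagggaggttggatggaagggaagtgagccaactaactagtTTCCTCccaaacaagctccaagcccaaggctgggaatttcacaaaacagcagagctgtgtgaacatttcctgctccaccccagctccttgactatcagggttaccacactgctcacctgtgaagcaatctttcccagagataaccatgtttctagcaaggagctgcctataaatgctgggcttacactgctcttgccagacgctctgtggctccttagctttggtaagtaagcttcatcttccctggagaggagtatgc
Stfa2l3: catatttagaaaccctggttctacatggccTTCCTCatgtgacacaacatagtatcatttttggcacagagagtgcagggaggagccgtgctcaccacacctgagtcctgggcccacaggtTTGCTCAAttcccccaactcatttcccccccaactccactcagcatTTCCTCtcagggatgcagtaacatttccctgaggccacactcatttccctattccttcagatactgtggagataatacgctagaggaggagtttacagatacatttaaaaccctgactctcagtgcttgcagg
Clec4d: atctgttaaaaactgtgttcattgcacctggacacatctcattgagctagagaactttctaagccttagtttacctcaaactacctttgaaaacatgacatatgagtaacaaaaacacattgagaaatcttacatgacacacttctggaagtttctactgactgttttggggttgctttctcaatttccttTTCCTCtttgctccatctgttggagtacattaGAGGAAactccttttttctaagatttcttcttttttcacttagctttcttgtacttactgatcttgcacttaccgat
Clec4e: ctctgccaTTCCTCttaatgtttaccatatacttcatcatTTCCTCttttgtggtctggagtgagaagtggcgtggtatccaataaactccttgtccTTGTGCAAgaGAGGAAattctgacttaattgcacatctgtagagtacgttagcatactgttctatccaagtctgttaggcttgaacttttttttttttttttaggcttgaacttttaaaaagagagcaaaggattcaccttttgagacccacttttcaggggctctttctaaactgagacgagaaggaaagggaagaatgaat
The PU.1 core was found in 6 of the 8 promoters (S100a9, Stfa2l3, Csf3r, Aqp9, Clec4d and Clec4e), and 27.6% of all 33469 promoters in the table hold it. The C/EBP letters were found in 2 of 8, Stfa2l3 and Clec4e, and in 10.6% of all promoters. Clec4e holds 3 PU.1 cores, of which the 1 nearest the start begins at -143, just after the C/EBP match that ends at -146, and Stfa2l3 and Clec4d hold 2 each. The 8 promoters also include 1 with TATAAA, that of S100a9, at 42 to 37 bases before the start (14.2% of all). These matches describe letters only, and binding was not measured.

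The fall went on to day 5 and then turned for some. At day 5 against day 3, 6 of the 10 neutrophil markers were lower (0.394% of all genes) and 0 higher (3.32%). The log2 differences (± SE) were -3.58 ± 0.84 for S100a8 (adjusted p = 0.00409 in limma's fit), -2.73 ± 0.32 for S100a9 (adjusted p = 1.34e-09), -2.68 ± 0.42 for Stfa2l3, -2.04 ± 0.41 for Padi4, -1.69 ± 0.38 for Nlrp12 and -1.04 ± 0.25 for Aqp9. Mcemp1 (-1.26 ± 0.63), Clec4d (-0.94 ± 0.48), Csf3r (-0.28 ± 0.47) and Clec4e (0.24 ± 0.33) did not pass, with adjusted p from 0.319 to 0.86. At day 7 against day 5 the direction changed: 3 markers were higher (4.73% of all genes) and 0 lower (5.78%). Nlrp12 was higher by 2.84 ± 0.46 on 10 of 10 arrays (adjusted p = 1.78e-05), Stfa2l3 by 1.94 ± 0.52 on 9 of 10 (adjusted p = 0.00822) and S100a9 by 1.23 ± 0.39 on 9 of 10 (adjusted p = 0.0281). The S100a9 call was lost when any 1 of 5 of the day 7 arrays was left out, replicates 13, 14 and 15 of 8 mm or 13 and 15 of 4 mm defects, with adjusted p from 0.0524 to 0.0843. The RefSeq probe of S100a8 gave 1.42 (adjusted p = 0.0269).

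Of the steps after day 7, none of the 3 tested with limma moved a neutrophil marker past the threshold. At an unadjusted p under 0.05 stood 1 marker at day 10 against day 7 (Stfa2l3, 1.74 ± 0.61), 0 at day 14 against day 10 and 0 at day 21 against day 14. Few genes at all passed in these steps: 0.0313% higher and 0.182% lower at day 10 against day 7, 0.394% and 0.639% at day 14 against day 10, and 0.482% and 1.04% at day 21 against day 14. Against day 1, which all of these comparisons share, 9 markers were lower at day 7 (4.83% of genes), 8 at day 10 (6.15%), 8 at day 14 (8.41%) and 8 at day 21 (12.8%), and 0 were higher, where 16.6%, 10.4%, 12.6% and 13.4% of genes were. Their median differences were -3.81, -2.77, -2.57 and -2.14 on these 4 days, and those of all genes 0.25, -0.06, -0.06 and -0.18. Markers whose groups did not overlap with day 1 numbered 6, 5, 4 and 3 (0.501%, 0.25%, 0.432% and 0.62% of genes), and at day 21 these were S100a9, Mcemp1 and Aqp9.

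Csf3r did not differ past the threshold from day 7 on: -1.48 ± 0.73, -1.91 ± 0.74, -1.29 ± 0.72 and -0.96 ± 0.71 at days 7, 10, 14 and 21 (adjusted p from 0.0626 to 0.332). Nlrp12 still passed at day 7 (-1.67 ± 0.58, adjusted p = 0.0294) but not at days 10, 14 and 21, at -0.80 ± 0.59, -1.04 ± 0.57 and -0.96 ± 0.56 (adjusted p from 0.196 to 0.375). Its 95% interval at day 21 ran from -2.08 to 0.15. The day 7 call of Nlrp12 was lost without replicate 17 or 18 of 4 mm defects at day 1, replicate 12 of 4 mm or replicate 10 of 8 mm defects at day 7 (adjusted p from 0.0531 to 0.105). Csf3r passed at day 10 without replicate 12, 13 or 15 of 8 mm defects (adjusted p from 0.0353 to 0.045). Mcemp1 and Clec4d stayed far below day 1 at day 21, by -5.35 ± 0.94 and -4.65 ± 0.72 (adjusted p = 6.42e-06 and 3.58e-07), with 3 and 2 of the 12 day 21 arrays at the floor. For S100a9 the deficit at day 21 was -2.92 ± 0.47, or 7.58-fold, on 12 of 12 arrays (adjusted p = 1.13e-06). Single day 1 arrays of 4 mm defects carried some calls. Without replicate 18, Padi4 at day 21 (-1.64, adjusted p = 0.0622) and Clec4e at day 7 (-1.39, adjusted p = 0.0698) did not pass. Without replicate 17, Stfa2l3 did not pass at day 10 (-1.84, adjusted p = 0.0709) or day 21 (-1.70, adjusted p = 0.0654). The S100a8 call at day 10 was lost without replicate 13 of 4 mm defects of that day (-3.75, adjusted p = 0.0511).

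**Figure D4:**
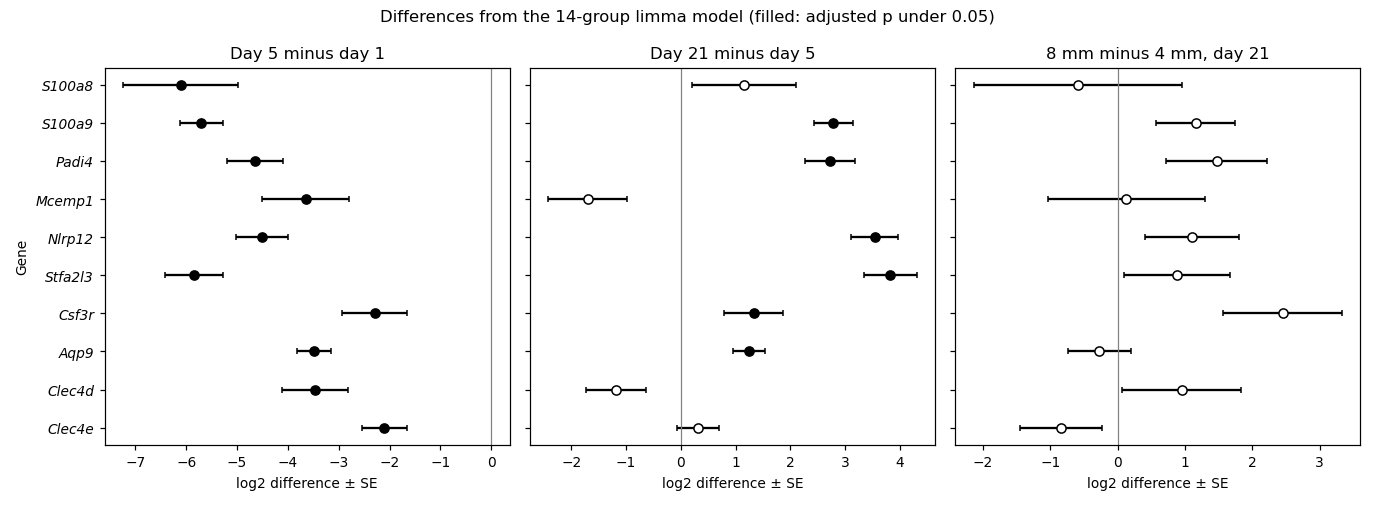
Log2 differences ± SE from the 14-group limma model (x) for each of the 10 neutrophil markers (y), with day 5 minus day 1, day 21 minus day 5 and 8 mm minus 4 mm at day 21 from left to right, filled where the adjusted p was under 0.05. All 10 are filled and negative on the left, 6 are filled and positive in the middle, and 0 are filled on the right.

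Set directly against day 5, day 21 was higher for 6 of the 10 neutrophil markers, where 9.45% of all genes were higher and 32.2% lower. Stfa2l3 was higher by 3.82 ± 0.48 (12 of 12 arrays, adjusted p = 8.48e-10), Nlrp12 by 3.54 ± 0.43 (12 of 12, adjusted p = 1.97e-10), S100a9 by 2.78 ± 0.36 (12 of 12, adjusted p = 1.96e-09), Padi4 by 2.72 ± 0.46 (11 of 12, adjusted p = 1.51e-06) and Aqp9 by 1.24 ± 0.29 (12 of 12, adjusted p = 0.000343). Csf3r, at 1.33 ± 0.54, passed narrowly (adjusted p = 0.0401) and lost the call when any 1 of 6 day 21 arrays was left out, replicates 12 to 15 of 4 mm or 11 and 14 of 8 mm defects (adjusted p from 0.0511 to 0.119). The other 4 did not pass: S100a8 (1.15 ± 0.95), Clec4e (0.31 ± 0.38), Clec4d (-1.18 ± 0.55) and Mcemp1 (-1.70 ± 0.72, adjusted p = 0.0501). The median was 1.28 over the 10 and -0.61 over all genes, and the all-gene median was -0.22 with each array centred on its median and -0.15 after quantile normalization. Mcemp1 passed as lower when replicate 10, 12, 13 or 14 of 4 mm or any of 12 to 15 of 8 mm defects was left out (adjusted p from 0.0252 to 0.0494). Clec4d did so without replicate 12, 14 or 15 of 4 mm or 14 of 8 mm defects (adjusted p from 0.0192 to 0.0439). These differences depend on the floor, where day 21 arrays of 8 mm and 4 mm defects stood for Mcemp1 (2 and 1) and Clec4d (1 and 1). Medians of Mcemp1 at days 5 and 21 were -0.51 and -0.07 in 8 mm and -0.14 and -1.35 in 4 mm defects. Those of Clec4d were -0.03 and -0.03 in 8 mm and -0.12 and -0.34 in 4 mm defects. The stefin, Nlrp12, S100a9, Padi4 and Aqp9 kept their calls with each single day 21 array left out.

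The arrays of day 21 show where this return was seen. In 8 mm defects S100a9 read 0.80, 0.34, 1.36, 1.12, 1.88 and 1.92, Padi4 1.72, 0.83, 1.80, 1.80, 1.92 and 2.07, and Nlrp12 1.66, -0.35, 2.48, 2.31, 2.37 and 2.05 (replicates 10 to 15). All of these lay above every day 5 array of 8 mm defects, whose highest values were -0.45, -0.64 and -0.41. Stfa2l3, from 0.07 to 2.89 at day 21 against a highest value of -1.20 at day 5, and Csf3r, from 0.88 to 3.53 against 0.08, were apart as well. In 8 mm defects the groups of day 21 and day 5 therefore did not overlap for 5 of the 10 markers (3.29% of genes).

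In 4 mm defects 0 of the 10 were apart in this way (1.59% of genes). There the 6 arrays of day 21 differed widely, with a median SD over the 10 markers of 2.33, beside 1.01 in 8 mm defects on that day and 0.98 in 4 mm defects at day 1. S100a9 read -1.97 and -1.60 on replicates 10 and 11, -0.16 on replicate 15, and 1.51, 1.42 and 1.22 on replicates 12, 13 and 14. Padi4 read -4.20 and -1.25, 0.46, and 1.88, 1.91 and 2.52 on the same arrays, and Nlrp12 -1.76 and -1.61, -0.14, and 2.75, 2.63 and 2.06. The same 2 arrays were low each time, while Aqp9, at 0.61 and 1.09 on them and from 0.09 to 0.99 on the other 4, did not follow. The mean over the 10 markers was -3.33 and -1.82 on replicates 10 and 11, -0.33 on replicate 15 and 1.64, 0.61 and 1.21 on replicates 12 to 14.

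Red cell genes moved with these arrays. The mean of the 8 erythroid markers measured (of 12 listed, Hbb, Alas2 and Slc4a1 among them) was -0.00 and -0.27 on replicates 10 and 11 of 4 mm defects, 1.25 on replicate 15, and 1.86, 1.72 and 1.72 on replicates 12 to 14. In 8 mm defects it lay between 1.62 and 2.24 on all 6 arrays. Over all arrays of the days, 8 of the 8 erythroid markers were higher at day 21 than at day 5 (9.45% of all genes), from 2.28 ± 0.26 (Alas2) to 3.53 ± 0.54 (Rhag). At day 5, 5 of 8 were lower than at day 1 (1.69% of all genes), among them Slc4a1 (-1.81 ± 0.68, adjusted p = 0.0495) and Hbb (-1.06 ± 0.34). The share of probes at the floor was 14.6% and 14.4% on replicates 10 and 11, 14.1% on replicate 15 and 16.7% to 22.6% on the others of that group. The part of red cells or of the floor in the day 21 values was not tested.

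**Figure D5:**
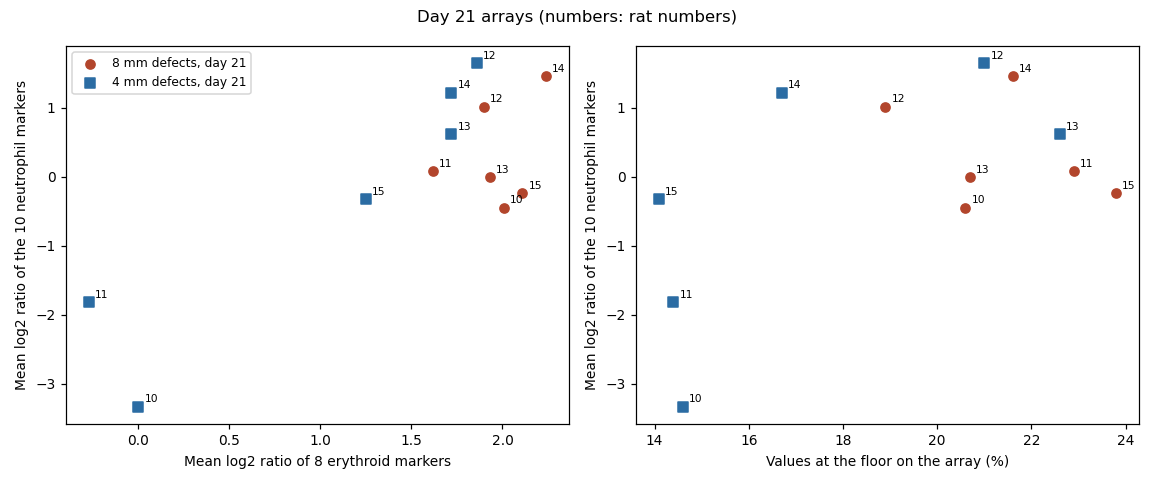
Mean log2 ratio of the 10 neutrophil markers (y) against the mean log2 ratio of 8 erythroid markers (left, x) and the percentage of values at the floor (right, x) on the 12 arrays of day 21, with 8 mm and 4 mm defects as circles and squares and rat numbers beside them. Replicates 10 and 11 of 4 mm defects are lowest for both gene groups, at -3.33 and -1.82 for the neutrophil markers, and the 8 mm arrays lie between -0.45 and 1.45.

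No neutrophil marker passed the test of defect size on any day. With limma 0 of 10 differed between 8 mm and 4 mm defects at each of the 7 days and over all days, and 0 showed an interaction of size and day (0.538% of genes). At an unadjusted p under 0.05 the only one was Csf3r at day 21. Shares of all genes higher and lower in 8 mm defects were 0.0% and 0.0% at days 1, 3 and 5, 0.0563% and 0.313% at day 7, 0.25% and 0.0125% at day 10, 1.52% and 0.113% at day 14, 0.538% and 1.86% at day 21, and 0.351% and 0.0626% over all days. Averaged over the days S100a9 differed by 0.26 ± 0.23 with a 95% interval from -0.19 to 0.71, Padi4 by 0.26 (-0.32 to 0.84), Aqp9 by -0.05 (-0.41 to 0.32) and Clec4e by -0.26 (-0.74 to 0.21), all within 1 log2 unit of 0. For S100a8 the interval was wider, from -1.36 to 1.02. Over the 10 markers these averaged differences ran from -0.26 to 0.26, and intervals of the others are not given here. An average over the days does not bound the difference on a single day.

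At day 21 the differences of 8 mm from 4 mm defects ran from -0.84 (Clec4e) to 2.45 (Csf3r), with a median of 0.91 beside -0.20 over all genes. Csf3r read 0.88, 3.53, 1.65, 1.06, 2.08 and 1.60 in 8 mm defects and -6.64, -0.67, 2.15, 0.83, 1.05 and -0.63 in 4 mm defects, so the groups overlapped and 1 of the lower values stood at the floor. Its difference of 2.45 ± 0.88 did not pass (adjusted p = 0.118). It did with array weights (3.31, adjusted p = 0.0331), without the 7 arrays of low level (2.45, adjusted p = 0.0335) and without replicate 12 of 4 mm defects (3.01, adjusted p = 0.0463). S100a9, Padi4 and Nlrp12 were at 1.16 ± 0.59, 1.47 ± 0.75 and 1.10 ± 0.70, with adjusted p from 0.32 to 0.463.

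How alike the 10 neutrophil markers ran was described by the correlation of each with the mean of the other 9 over the 14 group means, which share arrays, platform and floor. It was highest for S100a9 (0.967), Aqp9 (0.953) and Padi4 (0.92), then S100a8 (0.855) and Stfa2l3 (0.838), and lowest for Nlrp12 (0.612), Mcemp1 (0.706) and Clec4e (0.718). Nlrp12 had group means of 1.83 and 0.90 at day 10 in 8 mm and 4 mm defects (SD 0.95 and 0.41) and of 2.42 and 1.92 at day 1 (SD 0.44 and 1.0). Among 9951 genes at the floor on at most 10% of arrays, those with group means most like the mean of the 10 were Pglyrp1, a peptidoglycan-binding protein of neutrophil granules (r = 0.975), the cytokine Il1b (0.93), the integrin Itgb7 (0.923), LOC100909803 and the lymphotoxin Ltb (both 0.917), Hdc (0.90), the protease Napsa (0.899), the plasma glycoprotein Lrg1 (0.885), the granule proteoglycan Srgn (0.881) and Nfkbia, the inhibitor of NF-kB (0.872). Pglyrp1 differed by -3.08 between day 5 and day 1 and by 1.09 between day 21 and day 5, and Hdc by -4.56 and 0.50.

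Over all genes, 1.69% were lower and 17.3% higher at day 5 than at day 1, with a median of 0.34, and 32.2% were lower and 9.45% higher at day 21 than at day 5, with a median of -0.61. The counts of the lists that follow stand beside these shares. Of 30 measured of 36 listed granule, oxidase, receptor and regulator genes, 8 were lower and 1 higher at day 5 than at day 1, with a median of -1.11, or 26.7% lower and 3.33% higher. The collagenase Mmp8 (-4.73 ± 1.43, adjusted p = 0.0113, at the floor on 11 of 23 day 5 arrays), the chemokine receptor Cxcr2 (-3.20 ± 0.83), the chitinase-like Chi3l1 (-2.90 ± 0.32) and the elastase Elane (-2.44 ± 0.84) fell, and the Fc receptor Fcgr3a rose by 1.78 ± 0.43 (adjusted p = 0.00103). At day 21 against day 5, 8 (26.7%) were higher and 10 (33.3%) lower, with a median of -0.52, so the share of lower genes was near that of all genes. Higher were Mmp8 (4.34 ± 1.21) and Retnlg, a resistin-like secreted protein (3.25 ± 0.44, adjusted p = 5.45e-09). Lower were the formyl peptide receptor Fpr1 (-3.83 ± 1.13, at the floor on 8 of 12 day 21 arrays) and the granule protein Ngp (-3.63 ± 0.87, at the floor on 7).

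Of 21 ligands, receptors and signalling partners, 2 were lower and 2 higher at day 5 than at day 1 (9.52% each), with a median of -0.06. Il1b changed by -2.56 ± 0.36 (adjusted p = 2.15e-08) and the inflammasome sensor Nlrp3 by -1.20 ± 0.35, while the cathepsins Ctsh (1.68 ± 0.29) and Ctss (1.16 ± 0.27), enzymes of the class that stefins inhibit, rose. At day 21 against day 5, 2 (9.52%) were higher and 6 (28.6%) lower, both near the shares of all genes, with a median of -0.28. Ctsb (1.48 ± 0.21) and Il1b (1.23 ± 0.30) rose, and the Fc receptor gamma chain Fcer1g (-1.16 ± 0.23), the adaptor Card9 through which the lectin receptors signal (-1.01 ± 0.22) and the interleukin-1 antagonist Il1rn (-1.71 ± 0.60) were among those that fell. Of 36 relatives measured of 44 listed, 3 (8.33%) were lower and 6 (16.7%) higher at day 5 than at day 1, with a median of -0.17, the share of higher genes being near that of all genes. The stefin Stfa3 (-4.21 ± 1.52, adjusted p = 0.039, at the floor on 8 of 23 arrays) fell with Stfa2l3. Among the higher were S100a3 by 3.94 ± 0.77 (at the floor on 3 of 8 day 1 arrays), S100a16 by 2.03 ± 0.27 and S100a13 by 1.94 ± 0.26. At day 21 against day 5, 8 of the relatives (22.2%) were higher and 10 (27.8%) lower, with a median of -0.60. Aqp4 by 6.48 ± 1.11 (at the floor on 19 of 23 day 5 arrays) and Nlrp1a by 3.85 ± 0.38 were among the higher. Clec4g (-3.89 ± 1.10, at the floor on 7 of 12 day 21 arrays) and S100a5 (-2.81 ± 1.01, on 6 of 12) were among the lower.

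Markers of other cells moved beside them. Of 18 monocyte and macrophage genes measured of 19 listed, 7 (38.9%) were higher and 2 (11.1%) lower at day 5 than at day 1. Adgre1 (2.32 ± 0.32), C1qc (2.22 ± 0.32), C1qa (2.14 ± 0.36) and Trem2 (2.09 ± 0.29) were among the higher. The 2 lower genes were Ccr2 (-1.0 ± 0.29) and Fcgr1a (-0.87 ± 0.29). At day 21 against day 5, 1 (5.56%) was higher, Lyz2 (0.91 ± 0.23), and 11 (61.1%) were lower. The lower genes were led by Marco (-5.23 ± 1.21, at the floor on 9 of 12 day 21 arrays), Msr1 (-3.00 ± 0.34), Trem2 (-1.79 ± 0.24) and Cd68 (-1.70 ± 0.25). The average over all 18 stood at -1.16 and -1.38 in 8 mm and 4 mm defects at day 21 (SD 0.52 and 0.45), and at -0.02 and 0.15 at day 5 (SD 0.22 and 0.28). Of 9 mast cell genes measured of 11 listed, 1 was lower at day 5 than at day 1, Hdc, which makes histamine (-4.56 ± 0.46, adjusted p = 4.11e-13). By day 21 Tpsab1 was higher than at day 5 (1.17 ± 0.24). Fcer1a (-3.57 ± 0.92) and Gata2 (-2.09 ± 0.46) were lower, at the floor on 5 and 2 of 12 day 21 arrays. Of 10 eosinophil and basophil genes Ccr3 (-4.54 ± 1.18, at the floor on 10 of 23 day 5 arrays) and Prg2 (-0.80 ± 0.30) were lower at day 5 than at day 1. At day 21 against day 5, 4 of these 10 were higher (Ccr3 by 4.6 ± 1.0, Gata1 by 2.73 ± 0.38, Alox15 by 2.24 ± 0.74 and Prg2 by 2.17 ± 0.25). Of 9 pan-leukocyte genes measured of 10 listed, 1 was higher (Cd48, 1.07 ± 0.31) and 2 lower (Coro1a, -0.93 ± 0.26, and Cd37, -0.76 ± 0.25) at day 5 than at day 1. Day 21 was above day 5 for 3 of them and below for 0: Cd52 (3.43 ± 0.47), Ptprc (2.30 ± 0.38) and Coro1a (0.67 ± 0.22). The part of these cells in the marker values was not tested.

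Genes of tissues around the defect were read as well. Of 10 epidermal genes measured of 14 listed, 3 were lower at day 5 than at day 1, Krt14 (-2.95 ± 0.64), Krt5 (-1.89 ± 0.67) and Sprr1a (-1.88 ± 0.58). At day 21, 1 was lower than at day 5, Krt15 (-4.39 ± 1.14, at the floor on 6 of 12 day 21 arrays). The mean over these 10 at day 1 ran from -0.14 to 4.45 in 8 mm defects and from -0.02 to 3.36 in 4 mm defects, while S100a9, which stressed keratinocytes also make, ran from 2.78 to 4.45 over the same 8 arrays. The part of epidermis in the day 1 values was not tested. Of 11 bone genes, 5 were higher at day 5 than at day 1, led by Ibsp (5.06 ± 0.87) and Runx2 (4.24 ± 0.96). These 2 stood at the floor on 2 and 3 of 8 day 1 arrays. At day 21, 4 bone genes were higher than at day 5, led by Bglap, the gene of osteocalcin (6.41 ± 0.65). Of 9 muscle genes measured of 10 listed, Pygm was lower at day 5 than at day 1 (-1.21 ± 0.42), and 8 were lower at day 21 than at day 5, led by Ckm (-7.27 ± 1.15, at the floor on 6 of 12 day 21 arrays). Of 9 brain genes measured of 10 listed, Stmn2 was higher at day 5 than at day 1 (4.16 ± 0.56, at the floor on 2 of 8 day 1 arrays). Mbp (2.30 ± 0.72) and Stmn2 (1.18 ± 0.47) were higher at day 21 than at day 5. At day 21 the mean over the brain genes was -2.14 in 8 mm and 2.04 in 4 mm defects (SD 0.95 and 2.88). On single arrays it ran from -3.47 to -1.06 and from -1.61 to 4.76, so the sizes overlapped. Snap25, the only brain gene to pass for size that day, was lower in 8 mm defects (-7.72 ± 2.12, at the floor on 3 of 6 arrays). The mean over the bone genes at day 21 was 1.03 in 8 mm and -0.31 in 4 mm defects (SD 0.72 and 0.72). Means over lists were not tested between sizes. The part of these tissues in the marker values, or in their scatter at day 21, was not tested.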

How the data were processed

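RNA of each defect was labelled with Cy3 and hybridised to a 1-colour Agilent rat array, per the labels' protocols. The deposited value table holds, for each of 41090 probes, a linear ratio to the probe's own median over the 93 arrays: the median is 1 for 87.8% of probes, which was read from the deposited values. How the authors extracted and scaled the ratios is not given in the sources used here, and 13.4% of the ratios stand at 0.01, a floor. The tests were planned for values of unknown scale. Log2 of the ratio was taken, with no pseudocount, and 0 columns belonged to no sample.

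Of the probes, 20932 had 1 gene symbol, 20158 none and 0 several. Names were updated through 17415 matched accessions (2315 symbols changed). For 3881 genes with several probes, 1 probe was kept, that of widest interquartile range. One model of the 14 groups was fitted over 15974 genes with limma 3.58.1 in R 4.3.3, with Benjamini-Hochberg adjustment per comparison. Tables were made with Python 3.11.15, pandas 2.3.3 and numpy 2.4.6. Intervals are 95% and no total counts exist for arrays, whose number limits the precision. The model was tested on simulated data: for day 5 against day 1, 52% of changes of 3 (log2), 48% of 2, 44% of -2 and 12% of 1 were recovered, and 6.02% of calls were false. For size at day 21 these were 42%, 40%, 26%, 2% and 5.17%.

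The markers and all lists (other neutrophil genes, signalling partners, gene families, macrophage, mast cell, eosinophil and basophil, erythroid, epidermis, pan-leukocyte, bone, muscle and brain markers) were chosen with earlier results of these data known. All 10 markers are described, with up to 4 genes a list, those of largest change among the called, and the 10 genes most like the markers' mean. Any other gene named was chosen after its values were seen. Alternatives were quantile normalization, centring of arrays, the mean of all probes, leaving out the less variable genes, weights for arrays, a block of rat numbers, only the groups compared, values under 0.25 raised to 0.25, leaving out 7 arrays of low level, and leaving out each array of groups of 3 to 6. A RefSeq-matched probe and leaving out arrays in groups of 6 were added after the data were seen.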

Additional observations from a re-analysis of the deposited data

Results flagged for a closer look

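Among 100 sets of values of 1 marker in 1 group of 4 to 10 arrays, 15 held an array far from the others by Dixon's 95% limit, where chance gives about 1 in 20. Of these, 6 stood at the floor. S100a8 was -6.64 on replicate 15 of 8 mm defects at day 10, with the next at -0.82. Mcemp1 was -6.64 on replicate 14 of 8 mm defects at day 10 and on replicate 15 of 4 mm defects at day 14. Clec4d was -6.64 on replicate 10 of 8 mm defects at day 10, an array of low level, and on replicate 15 of 8 mm defects at day 21. Csf3r was -6.64 on replicate 10 of 4 mm defects at day 21, with the next at -0.67, and this array was low for most markers.

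Of the other 9, some fell on the same arrays. Replicate 11 of 8 mm defects at day 21 was low for Padi4 (0.83, the next 1.72) and Nlrp12 (-0.35, the next 1.66). Padi4 was -1.40 on replicate 15 of 8 mm defects at day 14, and Csf3r -1.81 on replicate 18 of 4 mm defects at day 14. At day 10, S100a9 was -1.40 on replicate 11 of 8 mm defects, an array of low level, Clec4e -4.99 on replicate 13 of 8 mm defects, and Stfa2l3 0.03 on replicate 10 of 4 mm defects, another array of low level. Nlrp12 was high on replicate 16 of 4 mm defects at day 14 (2.17), and Aqp9 on replicate 11 of 4 mm defects at day 10 (1.0).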

How the results depend on the processing

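Over the day comparisons with calls, and over size at day 21 for S100a9, Padi4, Nlrp12 and Csf3r, no marker changed direction in any alternative run. There 858 values kept their side of the threshold, 40 gained a call and 15 lost one, and 1134, 16 and 28 did so with 1 array left out. With the less variable genes left out (7987 tested), 7 of the 10 markers were tested, and the counts were 4 at day 3, and 5 each at days 7, 10, 14 and 21 against day 1 and over the days in 4 mm defects. Among those 7, only Csf3r at day 3 and at day 21 against day 5 and Nlrp12 at day 7 lost a call. After quantile normalization 5 markers were higher at day 7 than at day 5, with Padi4 (2.21) and Aqp9 (1.41) added. Size at day 21 gave 1 marker, Csf3r, with array weights or without the 7 arrays of low level. Calls were gained in 1 or more settings by S100a8 and Mcemp1 at day 3 and by Csf3r at days 7, 10, 14 and 21 against day 1, and by Mcemp1 and Clec4d at day 5 against day 3. They were also gained by S100a8 at day 7 against day 5 and, at day 21 against day 5, by S100a8 (quantile normalization 2.28, raised floor 1.33, besides the other probes) and, as lower, by Mcemp1 and Clec4d. With only the groups compared in the fit, Padi4 at day 21 (adjusted p = 0.0703), Clec4e at day 10 (0.0506), Nlrp12 at day 7 (0.0525) and Csf3r at day 21 against day 5 (0.063) lost their calls. Csf3r at day 21 against day 5 was lost with array weights too (0.76). With 1 array left out, counts ran from 5 to 8 over the days in 4 mm defects (5 without replicate 17 or 18 of day 1), 10 to 10 in 8 mm defects, 7 to 7 at day 3, 10 to 10 at day 5, 7 to 9 at days 7 and 10, 8 to 8 at day 14, 7 to 8 at day 21, 2 to 3 at day 7 against day 5, 5 to 7 at day 21 against day 5, and 0 to 1 for size at day 21 (1 without replicate 12 of 4 mm defects). The cause was not tested, except that fewer genes or arrays enter some settings. Deviations of same-numbered rats correlated at a median of 0.006 over 34 pairs of both sizes on 1 day (3 over 0.1), beside -0.003 over 316 pairs of different numbers (10 over 0.1). Across days these were 0.002 over 300 pairs (7 over 0.1) and 0 over 3315 (64 over 0.1). The highest value on 1 day was 0.332 for equal and 0.261 for different numbers. The numbers were not taken to pair the arrays, but medians near 0 cannot exclude that some arrays share a rat. With the replicate block, Clec4e (-1.45) and Nlrp12 (-1.56) at day 7, S100a8 (-3.95) and Stfa2l3 (-1.85) at day 10 and S100a9 at day 7 against day 5 (1.10) lost their calls. Array weights (0.75) and the raised floor (0.81) ended the S100a9 call too. The median of all genes moved by scaling: 0.34, -0.07 centred and 0.00 quantile-normalized at day 5 against day 1. The floor limits how far low values can be read.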
